A study of Mus musculus with 3 samples.

Results

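The CCN family is a small group of secreted growth regulators of the extracellular matrix. Its members Ccn1 to Ccn5 were followed in cultured mouse dermal fibroblasts with an active, a non-functional or a wild-type Fgfr3. They were taken as every probe set annotated to exactly 1 gene symbol where that symbol is Ccn1, Ccn2, Ccn3, Ccn4 or Ccn5 or the older name Cyr61, Ctgf, Nov, Wisp1 or Wisp2. All 5 genes were found, each with 1 probe set, among 7842 named genes. The probe sets are 92777_at for Ccn1, 93294_at for Ccn2, 100507_at for Ccn3, 102044_at for Ccn4 and 94704_at for Ccn5.

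FGFR3Act fibroblasts came from mice whose Fgfr3 carries the G374R change in its neo- form, and the receptor signals without ligand. FGFR3KO fibroblasts came from mice with the same change in its neo+ form and lack a functional receptor according to the labels. FGFR3WT fibroblasts came from wild-type Bl6 mice and were the control for both. All were dermal fibroblasts in fibroblast growth medium with no treatment. The labels used here do not give the strain background of the mutant mice, the age of the animals or the passage of the cells. The series addresses the profibrotic role of Fgfr3 signalling, and states n = 3 for each group. The table has 1 array column per genotype, which may stand for a single culture, pooled cultures or an average. The spread between cultures is therefore unknown, and values are given without errors or p-values. Each difference below is a difference between arrays.

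CCN proteins are matricellular proteins, which are secreted into the matrix and signal through integrins, heparan sulfate proteoglycans and LRP receptors. They are built from modules that resemble insulin-like growth factor binding proteins, the von Willebrand factor C repeat and the thrombospondin repeat, followed by a C-terminal cystine knot that Ccn5 lacks. In fibroblasts, Ccn1 and Ccn2 are known targets of TGF-beta, of the YAP and TAZ coactivators that bind TEAD factors, and of serum response factor. Ccn2, connective tissue growth factor, is a long-standing marker of fibrosis, while Ccn1 has been linked to fibroblast senescence in healing wounds. Ccn3 has been described as an opponent of Ccn2, Ccn4 was found as a WNT1-induced gene, and Ccn5 is associated with growth arrest.

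The promoter of Ccn1 is shown because Ccn1 was the 1 member of 5 matched in the RefSeq promoter table used. Ccn1 was also 1 of the 4 members at least 2-fold apart between FGFR3KO and FGFR3WT. The window runs from 250 bases before the start site to 50 bases after it, at chr3:145649936-145650235 of GRCm38.p6 on the minus strand, and is printed 5′ to 3′ in the direction of transcription. Capitals mark, from left to right, matches to a TEAD motif, a cyclic AMP response element (CRE) core, a TATA box and a SMAD motif.
Ccn1 promoter: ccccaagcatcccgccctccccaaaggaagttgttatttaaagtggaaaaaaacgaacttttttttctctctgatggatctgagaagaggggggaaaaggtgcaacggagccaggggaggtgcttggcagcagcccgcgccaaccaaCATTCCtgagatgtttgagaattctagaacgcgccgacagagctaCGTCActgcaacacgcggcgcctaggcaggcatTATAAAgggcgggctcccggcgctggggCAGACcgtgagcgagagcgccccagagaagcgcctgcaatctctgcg
Motifs were searched on both strands. The TEAD motif GGAATG matched on the opposite strand at positions -103 to -98 relative to the start site, and 14.6% of 27025 promoters of the same length hold it. The CRE core TGACG matched on the opposite strand at -58 to -54 and is held by 21.0% of promoters. The TATA box TATAAA lay at -25 to -20 and is held by 14.2%. The SMAD motif CAGAC lay at 4 to 8 and is held by 49.7%. The AP-1 motif TGANTCA, held by 7.93% of promoters, and the SRF CArG box, held by 1.57%, had no match in this window. None of the matches overlapped. A match of letters is a description and does not show binding.

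Signals are linear MAS5 intensities per probe set. The 40th percentile of each array's probe sets served as a floor, 122.6 for FGFR3Act, 121.9 for FGFR3KO and 120.8 for FGFR3WT, and signals below it were raised to it. Every CCN gene was above the floor on every array, the dimmest at 8.05 times the floor (Ccn1 on FGFR3KO) and the brightest at 90.5 times (Ccn2 on FGFR3Act). Because probe sets differ in brightness for the same amount of RNA, a signal is compared only between arrays for the same gene.

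Fgfr3 itself gave 2.42 on FGFR3Act and 3.76 on FGFR3KO, against 1.06 on FGFR3WT, all below the floor, so it could not check the labels. All 12 fibroblast markers were above the floor on every array. Macrophage and leukocyte markers had 15 probed genes, of which, by the brightest probe set of each on average, 13 were above the floor on FGFR3Act, against 1 (Cd14) on FGFR3KO and 1 (Cd14) on FGFR3WT. Their summed signal was 25530 on FGFR3Act, 1184 on FGFR3KO and 1074 on FGFR3WT. The brightest on FGFR3Act were Lyz2 (7037), Cd68 (2610) and C1qc (2204), while Itgam stayed below the floor on every array. The leukocyte gene Ptprc was below it by the probe set used, but another of its probe sets gave 262.9 on FGFR3Act and 1.56 on FGFR3KO, against 2.05 on FGFR3WT. None of 5 endothelial markers was above the floor on any array.

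**Figure D1:**
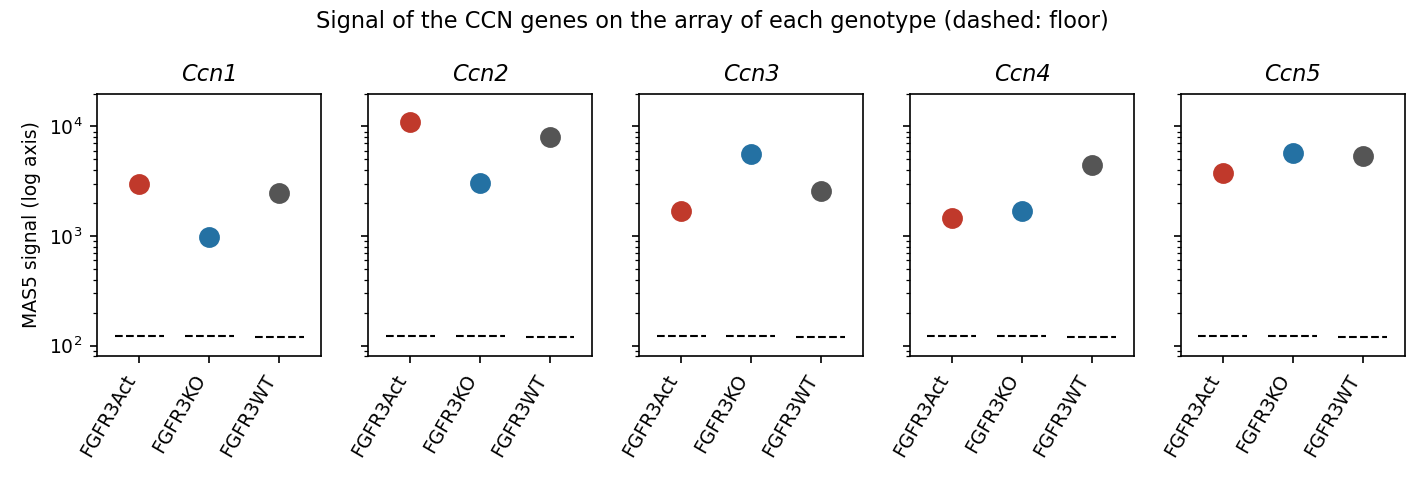
MAS5 signal (log axis) of each CCN gene on the FGFR3Act, FGFR3KO and FGFR3WT arrays, with 1 point per array and the array's floor dashed. Ccn1 and Ccn2 were lowest on FGFR3KO, Ccn3 was highest on FGFR3KO, and Ccn4 was highest on FGFR3WT; heights are not comparable between genes.

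Ccn2 had a signal of 11101 on FGFR3Act and 3083 on FGFR3KO, against 8061 on FGFR3WT. The FGFR3KO array was the low one, 2.62-fold below FGFR3WT (log2 difference -1.39), and FGFR3Act was 1.38-fold above FGFR3WT (0.46). Ccn1, also called Cyr61, an integrin-binding inducer of adhesion and angiogenesis, gave signals of 2982 on FGFR3Act and 982 on FGFR3KO, against 2462 on FGFR3WT. It had the same order of arrays, with FGFR3KO 2.51-fold below FGFR3WT (-1.33) and FGFR3Act 1.21-fold above it (0.28). Set directly against each other, FGFR3Act stood 3.60-fold above FGFR3KO for Ccn2 (1.85) and 3.04-fold above it for Ccn1 (1.60).

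Ccn3, a member studied in vascular and haematopoietic cells, ran in the opposite order. Its signal was 1680 on FGFR3Act and 5635 on FGFR3KO, against 2578 on FGFR3WT. The FGFR3KO array was the high one, 2.19-fold above FGFR3WT (1.13), and FGFR3Act was 1.53-fold below FGFR3WT (-0.62). FGFR3Act stood 3.35-fold below FGFR3KO (-1.75).

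Ccn4, also called Wisp1, had signals of 1458 on FGFR3Act and 1707 on FGFR3KO, against 4420 on FGFR3WT. Both mutant arrays were low, FGFR3Act 3.03-fold (-1.60) and FGFR3KO 2.59-fold (-1.37) below FGFR3WT, and FGFR3Act was 1.17-fold below FGFR3KO (-0.23). The low values of both mutants are measured against the same wild-type column and are not independent of each other.

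Ccn5, also called Wisp2, the member without the cystine knot, varied least. It gave 3784 on FGFR3Act and 5771 on FGFR3KO, against 5364 on FGFR3WT. FGFR3Act was 1.42-fold below FGFR3WT (-0.50) and 1.53-fold below FGFR3KO (-0.61). FGFR3KO was 1.08-fold above FGFR3WT (0.11), a difference whose sign turned under quantile normalisation (-0.12) and cyclic loess (-0.0007).

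The FGFR3KO array had lower Ccn1, Ccn2 and Ccn4 and higher Ccn3 than the FGFR3WT array, and Ccn4 was lower on FGFR3Act too (-1.60). Between FGFR3KO and FGFR3WT, 4 of the 5 members were at least 2-fold apart, where 5.54% of 5184 genes were. Of these, 1 member (Ccn3) was at least 2-fold higher, a size that 1.93% of genes reached, and 3 (Ccn1, Ccn2 and Ccn4) were at least 2-fold lower, which 3.61% reached. Counting the member itself, 48 genes lay as far below FGFR3WT as Ccn2, 50 as far as Ccn4 and 56 as far as Ccn1, and 63 lay as far above it as Ccn3. The median absolute log2 difference was 1.33 over the members and 0.33 over all genes of the pair. With 1 column per genotype, none of this could be tested.

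In this pair the macrophage markers other than Cd14 were below the floor on both arrays. Control probe sets did differ: those for beta-actin stood at 1.65, 1.62 and 1.48 times FGFR3WT on FGFR3KO from the 3′ end to the 5′ end, and those for 18S ribosomal RNA between 1.65 and 2.44 times. The ratio of the 3′ to the 5′ beta-actin signal, a sign of RNA integrity and labelling, was 1.44 on FGFR3Act, 1.82 on FGFR3KO and 1.64 on FGFR3WT. FGFR3Act differed from FGFR3WT as well, with beta-actin at 1.36, 1.42 and 1.55 times from the 3′ end to the 5′ end. Its 18S ribosomal RNA probe sets stood between 0.50 and 1.12 times FGFR3WT. The Gapdh control at the 5′ end stood at 0.55 times FGFR3WT on FGFR3Act and 0.91 times on FGFR3KO. The part of these differences in the CCN values was not tested.

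Between FGFR3Act and FGFR3WT, 1 of the 5 members was at least 2-fold apart, against 8.92% of 5244 genes. That member, Ccn4, was lower, as were 4.79% of genes by that much, and 39 genes, itself included, lay at least as far below. No member was at least 2-fold higher, a size that 4.14% of genes reached. Ccn1 and Ccn2 were well inside the spread of all genes, of which 58.9% and 38.6% were at least as far apart. This array carried the macrophage markers (summed signal 25530 against 1074 on FGFR3WT), and their part in the lower Ccn3, Ccn4 and Ccn5 or the higher Ccn1 and Ccn2 was not tested.

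Between FGFR3Act and FGFR3KO, 3 of the 5 members were at least 2-fold apart, against 15.8% of 5297 genes. Ccn1 and Ccn2 were at least 2-fold higher on FGFR3Act, as were 8.33% of genes, and Ccn3 was at least 2-fold lower, as were 7.49%. As far above FGFR3KO lay 101 genes for Ccn2 and 149 for Ccn1, and 79 lay as far below as Ccn3. This pair also holds the macrophage difference (25530 on FGFR3Act against 1184 on FGFR3KO), whose part was not tested here either. It does not use the wild-type column.

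**Figure D2:**
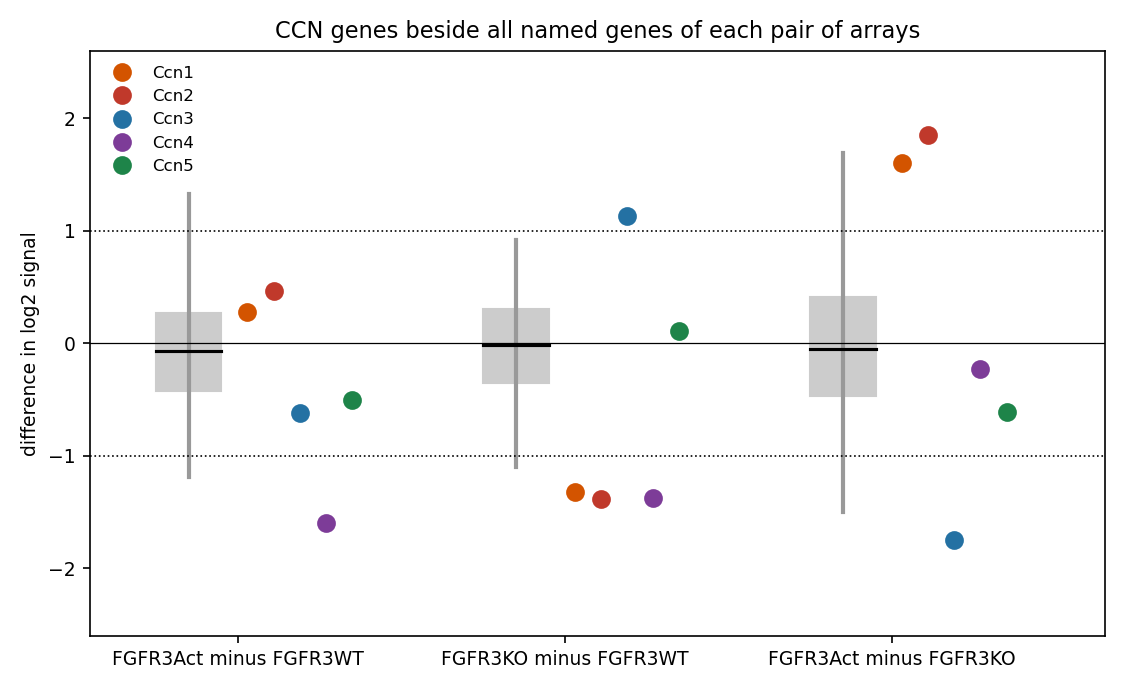
Differences in log2 signal of the 5 CCN genes (coloured points) for each pair of arrays, beside all named genes of the pair (grey line over the central 95% of genes, box over the middle quartiles, black bar at the median); dotted lines mark 2-fold. In FGFR3KO minus FGFR3WT, Ccn1, Ccn2 and Ccn4 lie below the lower end of the line at -1.10 and Ccn3 above its upper end at 0.92, whereas Ccn5 (0.11) is inside the box.

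Within the family, Ccn1 and Ccn2 had nearly the same pattern over the 3 arrays. Taking for each gene its differences from FGFR3WT on FGFR3Act and on FGFR3KO, the Euclidean distance between Ccn1 and Ccn2 was 0.19 on the log2 scale, the smallest of the 10 pairs of members. The next was 1.03, between Ccn3 and Ccn5, and the largest was 2.74, between Ccn2 and Ccn3. With 3 arrays these distances describe the arrays only.

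By the same distance, each member was set beside the 825 other genes that were above the floor on all 3 arrays and at least 2-fold apart in at least 1 pair. The genes nearest to Ccn2 were Kifap3, the kinesin-associated protein gene (distance 0.07), Eif4a2, a translation initiation helicase (0.15), and Timp2, an inhibitor of matrix metalloproteinases (0.15). Timp2 had signals of 2069 on FGFR3Act and 577 on FGFR3KO, against 1396 on FGFR3WT. Nearest to Ccn1 were Eif4a2 (0.07), Tm9sf2 (0.07) and the COP9 signalosome subunit Cops2 (0.10), so Eif4a2 was named for both.

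Ccn3 lay nearest to the thromboxane receptor Tbxa2r (0.02), the fatty acid elongase Elovl6 (0.03) and the cyclin-dependent kinase subunit Cks2 (0.09). Cks2 had 510 on FGFR3Act and 1800 on FGFR3KO, against 831 on FGFR3WT. For Ccn4 they were the phosphodiesterase Pde7a (0.10), the sodium-calcium exchanger Slc8a1 (0.17) and the heat shock cochaperone Dnajb1 (0.37). Ccn4 had few close neighbours, with 9 of the 825 genes within a distance of 0.5, while 98 were that near to Ccn1, 70 to Ccn2, 69 to Ccn3 and 76 to Ccn5. On FGFR3Act, 2.61% of genes were at least as far from FGFR3WT as Ccn4, against 58.9% for Ccn1, 38.6% for Ccn2 and 25.3% for Ccn3. Few genes lie that far out, so the count for Ccn4 also reflects the size of its differences. The nearest to Ccn5 were the phosphatase Ppp4c (0.28), the collagen VI chain Col6a1 (0.29) and the secreted Mydgf (0.30). Ccn5 itself was 2-fold apart in no pair, so genes with differences as small as its own were left out beforehand. Its distances and its count of 76 are limited by that choice and are not comparable with those of the other members.

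Of 8 receptors and co-receptors of CCN proteins compared, none was 2-fold apart between FGFR3KO and FGFR3WT (median log2 difference 0.20, against -0.02 over all genes). The integrin subunits Itgb1 and Itgav, which take part in the binding of several CCN proteins, had log2 differences of 0.77 and 0.59. A dimmer probe set of Itgb1 gave 0.39. The co-receptor syndecan-4 (Sdc4) had a log2 difference of 0.56 and Itgb5 one of -0.68. With FGFR3Act against FGFR3WT, 1 receptor of 9 stood at least 2-fold above and 0 that far below, and the median of 0.18 turned to -0.03 under quantile normalisation. That gene was the leukocyte integrin subunit Itgb2, at least 5.05-fold higher, on the array with the macrophage markers. Sdc4 (0.75), Itgb5 (-0.71) and Itgb1 (0.50) followed.

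Growth factors and matrix proteins that CCN proteins bind were higher on FGFR3KO than on FGFR3WT in 8 of 11. At least 2-fold above were 2, where 1.93% of all genes were, and 0 were that far below. The median was 0.48, against -0.02 over all genes, and moved to 0.26 under quantile normalisation and 0.33 under cyclic loess. The growth factor gene Igf2 was 2.26-fold and the matrix protein gene Fbln1 2.24-fold higher, though the other probe sets of Fbln1 gave log2 differences of 0.70 and 0.94, under 2-fold. Bmp4, a TGF-beta family ligand, had a log2 difference of -0.96, and Igf1 one of 0.93, for which a dimmer probe set gave 0.16. Of 11 compared on FGFR3Act against FGFR3WT, 2 were at least 2-fold lower, Bmp4 by 2.98-fold (a dimmer probe set gave a log2 difference of -0.81) and the TGF-beta ligand gene Tgfb2 by 2.13-fold, and 0 were at least 2-fold higher. The median there was -0.12, which turned to 0.06 with the mean over probe sets.

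Other targets of YAP, TAZ and TEAD had the sign pattern of Ccn1 and Ccn2 by their medians, at smaller sizes. On FGFR3KO against FGFR3WT none of 12 was 2-fold apart, 8 were lower and the median was -0.25. The angiomotin-like Amotl2 had a log2 difference of -0.92, Tgfb2 -0.77, the stress-response gene Gadd45a -0.73 and the muscle ankyrin repeat gene Ankrd1 -0.52. Ankrd1 was 3.13-fold higher and Tgfb2 2.13-fold lower on FGFR3Act than on FGFR3WT among 11 (6 higher, 5 lower, median 0.18). Between FGFR3Act and FGFR3KO, Ankrd1 was 4.50-fold and Gadd45a 2.10-fold higher among 12 (7 higher, 5 lower, median 0.38). These 3 medians kept their signs under all 8 alternatives. Their signs were not particular to this list. WNT targets and modulators had medians of 0.14 on FGFR3Act and -0.25 on FGFR3KO against FGFR3WT, and 0.22 between FGFR3Act and FGFR3KO. Immediate early genes had 0.51, -0.02 and 0.55 in the same order, the -0.02 turning sign under some alternatives.

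Among Hippo pathway and TEAD factor genes, the YAP-binding Amot was 5.69-fold higher and Tead2 2.02-fold lower on FGFR3Act than on FGFR3WT (8 compared, median 0.30), and Yap1 had a log2 difference of 0.56. On FGFR3KO none of these 8 was 2-fold apart from FGFR3WT, with a median of 0.13 that turned to -0.31 with the mean over probe sets, and Yap1 had a log2 difference of 0.30. Probe sets of the TAZ gene Wwtr1 and of Mob1a, named after their values were seen, disagreed. Against FGFR3WT, the Wwtr1 probe set used gave 0.07 on FGFR3KO and -0.15 on FGFR3Act, and the other -0.85 and 0.63. For Mob1a the values on FGFR3KO were 0.19 and -0.80. Which probe set reports the gene was not tested.

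The list of targets of SRF and its MRTF coactivators, mostly contractile genes, also held the coactivator gene Mrtfa (0.27 on FGFR3KO against FGFR3WT). Genes of this list ran against Ccn1 and Ccn2. They were higher on FGFR3KO than on FGFR3WT in 15 of 16, with no gene 2-fold lower. Calponin (Cnn1) was 2.61-fold higher, and 1.93% of all genes were at least 2-fold higher. The median was 0.57, against -0.02 over all genes, and lay between 0.35 and 0.60 over the settings. The beta-actin gene is on this list, with a log2 difference of 0.83, beside the beta-actin control probe sets given above. FGFR3Act had 2 of 16 at least 2-fold below FGFR3WT, the smooth muscle actin Actg2 by 2.57-fold and Pdlim7 by 2.02-fold (its other probe sets gave log2 differences of -0.57 and 0.11), 0 that far above it, and the median was -0.40. Both medians kept their signs under all 8 alternatives.

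Immediate early genes, which serum and growth factors induce within minutes along with Ccn1, were spread around FGFR3WT on FGFR3KO. Of 16, 2 were at least 2-fold below and 0 that far above, the 2 being the survival gene Ier3 by 2.14-fold and Fos, a subunit of AP-1, by 2.04-fold. The median was -0.02 and turned to 0.04 under quantile normalisation, 0.02 under cyclic loess and 0.01 under median centring. FGFR3Act had 3 of 16 at least 2-fold above FGFR3WT, the AP-1 subunits Fosl1 (3.32-fold) and Jun (2.41-fold) and the stress factor Atf3 (3.08-fold), with 0 that far below and a median of 0.51. For Atf3 a dimmer probe set gave a log2 difference of 0.42.

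Targets of TGF-beta and SMAD other than the CCN genes lay around FGFR3WT on FGFR3KO. Of 15, 1 was at least 2-fold lower than on FGFR3WT, the circadian repressor Bhlhe40 (2.24-fold), and 0 were at least 2-fold higher. Their median was 0.07, and -0.01 with the floor at the 60th percentile. With FGFR3Act against FGFR3WT, 1 was at least 2-fold higher, the differentiation inhibitor Id2 (6.19-fold), 0 were at least 2-fold lower and the median was 0.18. Of 5 TGF-beta receptors and SMAD factors compared, none was 2-fold apart in any of the 3 pairs.

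For WNT targets and modulators, the pathway through which Ccn4 was found, FGFR3KO had 1 of 9 genes at least 2-fold above FGFR3WT and 2 that far below it. The median of -0.25 moved to -0.14 when the floor was lowered to the 20th percentile and to -0.0033 when probe sets were averaged. The WNT antagonist gene Dkk2 was 2.70-fold and its relative Dkk3 2.11-fold lower, and the R-spondin receptor gene Lgr5 was at least 2.98-fold higher. On FGFR3Act, where Ccn4 was also low, the cyclin D1 gene Ccnd1 was 3.94-fold above FGFR3WT (a dimmer probe set gave a log2 difference of 0.79), 0 of 9 genes were 2-fold below it and the median was 0.14. Dkk3 had a log2 difference of -0.85 there.

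Fibrosis markers gave no gene at least 2-fold apart between FGFR3KO and FGFR3WT among 13. They were higher on FGFR3KO in 12 of 13, with a median of 0.32 that was 0.01 under quantile normalisation. The inhibitor gene Timp1 had a log2 difference of 0.86, smooth muscle actin Acta2 0.77 and tenascin C (Tnc) 0.64, while endothelin 1 (Edn1), at the floor on FGFR3KO, had one of -0.65. Ccn2 (-1.39) thus lay on the other side of FGFR3WT from Timp1, Acta2 and Tnc on the same arrays. Tnc stood 2.03-fold above FGFR3WT on FGFR3Act, 0 were at least 2-fold lower, and the median of 0.17 turned to -0.02 under quantile normalisation. The collagen genes Col1a1 and Col3a1, named after their values were seen, had probe sets that disagreed there. The log2 differences were -0.11 for the one used and -2.94 for the other in Col1a1, and -0.95 and -3.18 in Col3a1, so the count of 0 depends on the probe sets used. For FGFR3KO against FGFR3WT they were 0.57 and -0.0073 in Col1a1, and 0.32 and -0.87 in Col3a1. For Col5a1 both were positive (0.07 and 0.42). The 12 of 13 higher on FGFR3KO thus also depends on the probe sets used.

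**Figure D3:**
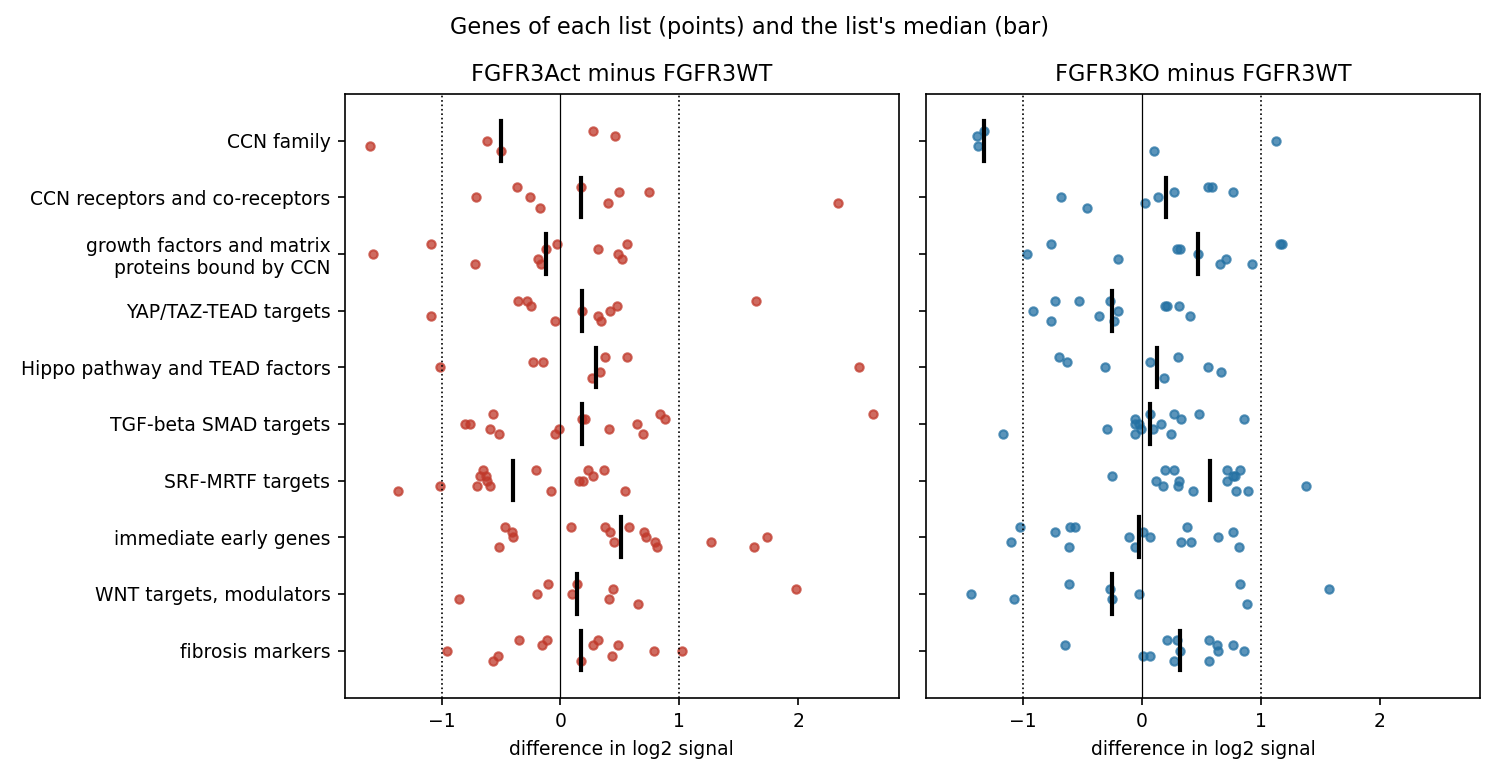
Differences in log2 signal of single genes (points) and list medians (bars) for FGFR3Act minus FGFR3WT (left) and FGFR3KO minus FGFR3WT (right), for the CCN family and 9 related lists; dotted lines mark 2-fold. On the right, Ccn1, Ccn2 and Ccn4 lie together between -1.33 and -1.39, below every YAP/TAZ-TEAD target and fibrosis marker, and the SRF-MRTF targets have their median at 0.57.

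**Figure D4:**
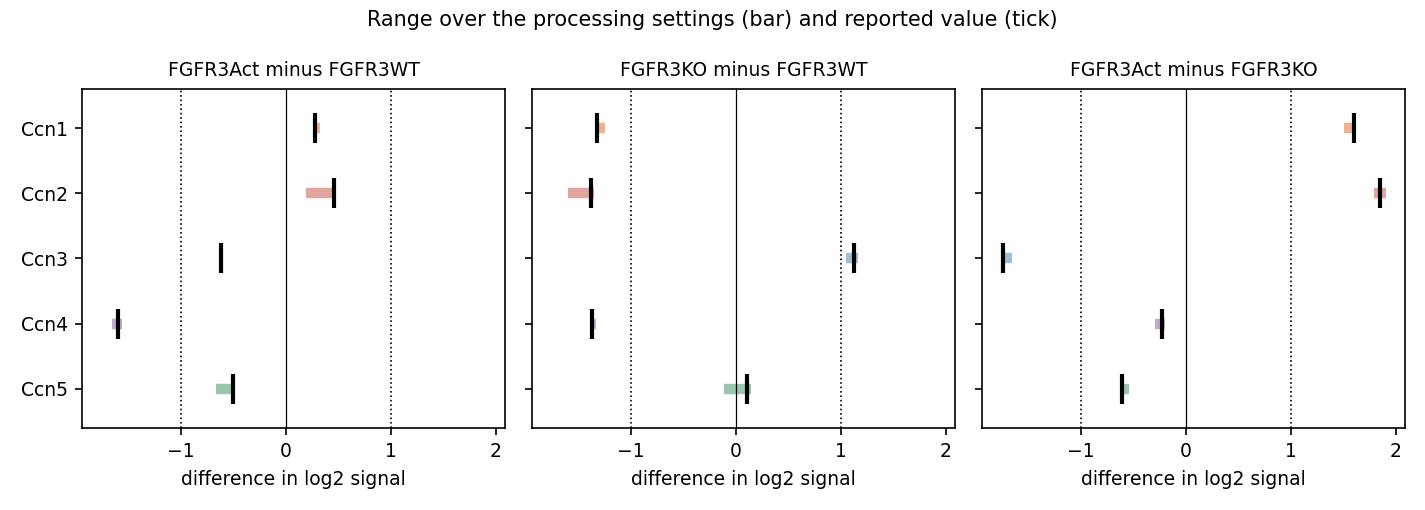
Range of each member's difference in log2 signal over the reported setting and the 8 alternatives (bars), with the reported value as a tick, for each pair of arrays; dotted lines mark 2-fold. Every member stays on its side of the 2-fold lines, and the bar of Ccn5 in FGFR3KO minus FGFR3WT crosses 0.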

How the data were processed

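RNA of cultured fibroblasts of 3 genotypes was measured on Affymetrix arrays from biotin-labelled cRNA, and the table has 1 column per genotype. The deposited values are linear intensity values per probe set, made with MAS5 per the submitters' processing notes. For MAS5, neither version nor scaling target nor detection call is given in these sources. The table has 9889 probe sets, 18 of them controls. GEO's platform annotation gives 1 symbol for 9053, several for 323 and none here for 513, and gene IDs of 9041 matched RefSeq (GRCm38.p6), through which symbols were updated. A gene with several probe sets was represented by the one with the highest mean log2 signal.

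No scaling was added. Signals were raised to a floor at the 40th percentile and log2 differences were taken for the 3 pairs of arrays, for genes above the floor on at least 1 array of the pair. Where 1 array was at the floor, the fold is a bound. A difference of at least 2-fold describes size and is no test. The number of arrays limits precision. Named genes were the members, Fgfr3, the 3 genes nearest to each member, up to 4 genes furthest apart per list, and the 3 brightest macrophage markers. The members and lists were chosen with earlier results of these data known. The arithmetic was tested on simulated data. Alternatives used limma 3.58.1 in R 4.3.3 for quantile normalisation and cyclic loess, and Python 3.11.15 otherwise.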

Additional observations from a re-analysis of the deposited data

How the results depend on the processing

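The 8 alternatives were quantile normalisation, cyclic loess, median centring, a lower floor (20th percentile), a higher floor (60th percentile), an offset of 12 in place of the floor, averaging the probe sets of a gene, and dropping those named _s_at or _x_at. The lower floor, the higher floor and the last 2 leave the members' own values as they are. Each member lies above every floor and has 1 plain probe set. Only quantile normalisation, cyclic loess, median centring and the offset could therefore move a member. The values that could not move are included in the counts that follow. Of 144 recomputed member values and counts, 142 kept their direction and their side of 2-fold and moved by less than 1.5 times. The other 2 were Ccn5 on FGFR3KO against FGFR3WT, at -0.12 under quantile normalisation and -0.0007 under cyclic loess, against 0.11 as reported; the cause was not tested. The numbers of members at least 2-fold apart were the same in all 8, 1 for FGFR3Act against FGFR3WT, 4 for FGFR3KO against FGFR3WT and 3 for FGFR3Act against FGFR3KO. Ccn3 on FGFR3KO came nearest to 2-fold, at 2.07-fold to 2.24-fold, and Ccn2 on FGFR3Act ranged from 1.14-fold to 1.39-fold above FGFR3WT. Of 280 recomputed list medians, 46 moved by 0.1 or more. No paired analysis was possible because each genotype has 1 column, and for the same reason no replicate could be left out.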
